A study of Homo sapiens with 23 samples.

Results

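Line 1G10 is 1 of the 3 lines labelled as knockouts of human Flower (hFWE, gene symbol CACFD1) in a series of 23 xenograft tumours, and its 4 tumours, specimens 5546, 5547, 5548 and 5549, were set against tumours labelled as wild type (WT). The members were taken by sample title, through the library name that heads each column of normalized values. The WT side held 11 tumours, 4 of line 5B2, 3 of line 6C9 and 4 of line 6C10. The fourth tumour of line 6C9, specimen 5533, was left out, since its library was thin (2037751 estimated reads) and correlated with the rest at a median of only 0.763. All tumours grew from SCC-13, a long-established line of human skin squamous carcinoma cells, injected under the skin of NCG mice (NOD-Prkdcem26Cd52Il2rgem26Cd22/NjuCrl), which lack functional lymphocytes and keep their other host cells. WT and knockout (KO) cells were carried in the same Matrigel mix, and every tumour was harvested 26 days after injection. The labels name the lines by code and do not state how a line was derived, how the gene was disrupted or whether each tumour had its own mouse. Line 1G10 is a single line, so an effect of the knockout and a property of the line cannot be told apart, and each p-value reflects how far these particular tumours vary.

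Flower is a transmembrane protein made in several isoforms. It is known from the fruit fly for marking cells in cell competition and for calcium entry at synaptic vesicles, and the series concerns the human isoform hFWE4 and cornification. Cornification is the last step of keratinocyte differentiation. Cells leave the basal layer, where KRT5 and KRT14 are made, switch to KRT1 and KRT10 in the spinous layer, make filaggrin and loricrin in the granular layer, and are then cross-linked into a cornified envelope sealed with lipids and shed by kallikrein proteases. Each value sums over a gene's transcripts, so the isoforms of Flower are not separated.

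Estimated reads were 7011069 in WT specimen 5532 and between 13082214 and 22093213 in the other 14 tumours. The 1G10 libraries held between 13623661 and 16354578. Specimen 5549 correlated with the rest at a median of 0.945, the lowest of the 4, where the median over the 15 tumours was 0.968. WT specimen 5532, which was kept, had 0.943. Specimen 5549 stood apart in many of the genes below. The calls and list medians are given with and without it, and many single genes with all 15 tumours only. All 14 squamous keratinocyte markers that had been chosen were tested, and none was absent. KRT5, the basal type II keratin, ranged from 193492 to 411963 in the 15 tumours on the normalized scale.

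The RNA of CACFD1 itself (ENSG00000160325, hg38 chromosome 9, 133459965 to 133470849, plus strand) was present in all 4 tumours labelled KO. Its normalized values were 281, 255, 246 and 167 in specimens 5546, 5547, 5548 and 5549, and 286, 370.4 and 432 at the lowest, median and highest of the 11 WT tumours. Every 1G10 tumour lay below every WT tumour, with the smallest gap between KO specimen 5546 and the lowest WT tumour. The mean was 237 ± 49.0 (SD, n = 4) against 375 ± 48.7 (SD, n = 11), a log2 difference of -0.67 (SE 0.13). In an exact two-sided permutation test of CACFD1 alone p was 0.000733, the smallest that the 1365 arrangements can give. Over all genes limma gave an adjusted p of 0.181 for it, so it did not pass the threshold. Without specimen 5549 the difference was -0.51 (SE 0.12), with an exact permutation p of 0.00275, again the smallest possible with 364 arrangements, and a limma adjusted p of 0.738. By line, the mean was 403 ± 37.4 in 5B2 (n = 4), 326 ± 41.4 in 6C9 (n = 3) and 384 ± 42.2 in 6C10 (n = 4) for WT, and 342 ± 31.6 in 2F7 (n = 3) and 265 ± 44.1 in 2B8 (n = 4) for the other KO lines. Line 1G10 was the lowest of the 6 lines in this order, and its range overlapped that of 2B8.

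Of 15852 genes with a mean of at least 10, 3 passed an adjusted p of 0.05 in limma (Benjamini-Hochberg over all genes), a share of 0.0189%, and all 3 were lower in line 1G10. One was ELF3, which encodes an ETS-family transcription factor active in epithelial differentiation. The other 2 carry Ensembl identifiers only. For ELF3 (ENSG00000163435, chromosome 1, 202007945 to 202017184, plus strand) the 1G10 values were 124, 142, 159 and 62.8, against 197, 335 and 409 at the lowest, median and highest WT tumour. All 4 lay below all 11. ELF3-AS1, with a mean of 57.9 over the 15 tumours, shares some of the span of ELF3 on the opposite strand. ELF3 fell by 1.41 on the log2 scale (SE 0.23, limma adjusted p = 0.0492). Its difference was -1.12 without specimen 5549 (SE 0.20, limma adjusted p = 0.238), and the call was lost. Of the 15 fits that each left out 1 tumour, ELF3 was called in 3. With the line of each tumour as a random block the ELF3 call was also lost, at -1.41 (SE 0.23, limma adjusted p = 0.0682). Over all its alternatives the limma adjusted p of ELF3 was between 0.00804 and 0.376, and it was called in 9 of 32. These 32 hold the fit without WT specimen 5532 under 2 names.

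ENSG00000283228 (protein coding per the table, chromosome 2, 151802651 to 151973950, minus strand) had 125, 87.2, 89.6 and 49.9 in line 1G10, and 152, 300.1 and 363 at the lowest, median and highest WT tumour. The groups did not overlap. It fell by 1.63 on the log2 scale (SE 0.25, limma adjusted p = 0.0308), with -1.39 and an adjusted p of 0.238 without specimen 5549. CACNB4 shares its strand and part of its span, so the counting may have split reads and its value is uncertain. CACNB4 had a log2 difference of -0.30 (limma adjusted p = 0.823). The long noncoding RNA ENSG00000267601 (chromosome 17, 78855478 to 78855845, plus strand) lies antisense within TIMP2, and no source used here states whether counting used strand. Its values were 2.79, 4.48, 4.42 and 0.312 in line 1G10 and 10.9, 19.2 and 47.6 at the lowest, median and highest WT tumour, near the bottom of what was tested. It fell by 2.73 on the log2 scale (SE 0.39, limma adjusted p = 0.0300), with -2.26 and an adjusted p of 0.121 without specimen 5549. Every 1G10 value lay under 10, the mean required for testing, so this gene was tested because of its WT values. Its log2 difference was -2.99 with a pseudocount of 0.5 in place of 1, and -1.34 with a pseudocount of 10.

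Without specimen 5549, limma called 0 of 15847 genes, with 1048 (6.61%) at an unadjusted p under 0.05 and a lowest adjusted p of 0.121. The 3 calls also depended on other tumours. Leaving out 1 tumour at a time gave 0 calls in 10 of 15 fits, namely without KO specimens 5547, 5548 or 5549, WT specimens 5526, 5527 or 5532, or any of the 4 tumours of line 6C10. It gave 1 call without KO specimen 5546 or WT specimen 5528, 3 without WT 5529 or 5530, and 25 without WT specimen 5531. Those 25 held 24 lower genes, among them CACFD1 (adjusted p = 0.0354), and 1 higher gene. The remaining genes are therefore given as values without a call.

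**Figure D1:**
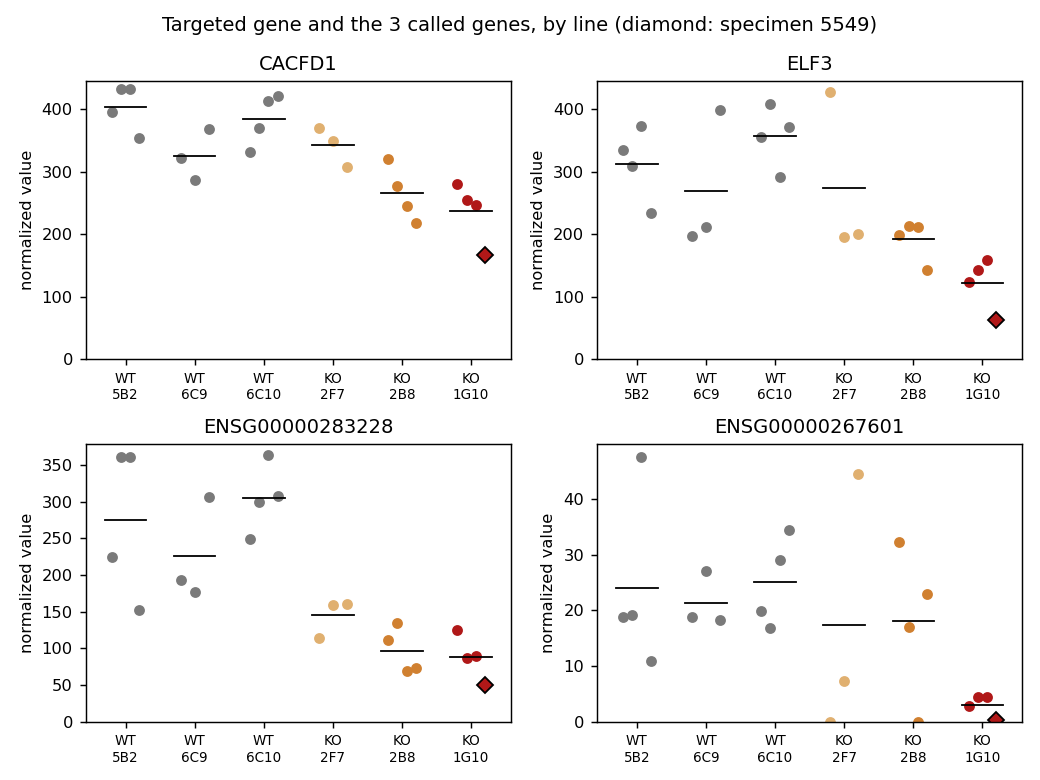
Normalized values of CACFD1 and of the 3 called genes in 22 tumours, by line, with a bar at each line's mean. Grey points are WT tumours, orange and red points KO tumours, and the diamond is KO specimen 5549. The 4 points of 1G10 lie below all 11 WT points in each panel.

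The 250 bases before the start of CACFD1, ELF3 and FN1 are shown because CACFD1 is the targeted gene, ELF3 the only called gene with a symbol, and FN1, described next, the gene with the highest statistic. They are from RefSeq (GRCh38.p14) and precede the start that RefSeq gives, which for ELF3 lies inside the longer gene span given above. They are read 5′ to 3′ in the direction of the gene, and span chr9:133459728-133459977 on the plus strand, chr1:202010337-202010586 on the plus strand and chr2:215436069-215436318 on the minus strand in that order. Capitals mark every match, on either strand, of 4 motifs. These were TATAAA, known as the TATA box, CCAAT, known as the CCAAT box, GGGCGG, known as the GC box, and CCGGAAG, which holds the core bound by ETS factors.
CACFD1: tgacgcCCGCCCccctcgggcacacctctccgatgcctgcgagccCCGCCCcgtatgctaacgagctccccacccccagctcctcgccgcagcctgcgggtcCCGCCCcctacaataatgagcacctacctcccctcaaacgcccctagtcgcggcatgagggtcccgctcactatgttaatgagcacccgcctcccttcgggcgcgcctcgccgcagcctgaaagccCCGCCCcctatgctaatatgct
ELF3: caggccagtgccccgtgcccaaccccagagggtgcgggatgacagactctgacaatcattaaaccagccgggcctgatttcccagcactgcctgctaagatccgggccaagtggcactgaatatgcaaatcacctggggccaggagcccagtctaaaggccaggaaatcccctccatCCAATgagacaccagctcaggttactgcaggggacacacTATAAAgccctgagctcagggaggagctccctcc
FN1: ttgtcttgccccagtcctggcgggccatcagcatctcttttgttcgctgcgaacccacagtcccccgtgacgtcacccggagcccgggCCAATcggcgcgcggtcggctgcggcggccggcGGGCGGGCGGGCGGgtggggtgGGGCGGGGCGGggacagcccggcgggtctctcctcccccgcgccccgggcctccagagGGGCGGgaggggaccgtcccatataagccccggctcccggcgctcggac
CACFD1 held 4 GC boxes and none of the other 3 motifs. ELF3 held 1 TATA box and 1 CCAAT box with no GC box, and FN1 held 1 CCAAT box and 6 GC boxes, some of which overlap. Over 35116 RefSeq promoters the same stretch held TATAAA in 10.7%, CCAAT in 32.0%, GGGCGG in 42.6% and CCGGAAG in 8.52%. Of the 24 genes with the largest statistics, 19 matched the table, and of these 3 held TATAAA, 4 CCAAT, 14 GGGCGG and 2 CCGGAAG. A match is a description of letters and not a binding site.

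Among named genes, the 12 with the most negative statistics were ELF3, CACFD1, SP5, ATP6V1C2, GRIN1, PRSS22, IRX3, VILL, SLC15A1, CD164L2, CTSH and INA. Beyond ELF3 none passed the threshold, and the adjusted p of the other 11 was 0.181 in limma. For INA, the neuronal intermediate filament alpha-internexin, the 1G10 values were 28.4, 7.30, 21.6 and 3.90 against 16.2, 131 and 319.8 at the lowest, median and highest WT tumour. Its log2 difference was -3.25 (SE 0.69), and -2.79 without specimen 5549. The end of NT5C2, which has a mean of 821 over the 15 tumours, overlaps a short stretch of INA on the opposite strand. The WT tumours were themselves spread widely, and WT specimens 5530 and 5531 lay within the 1G10 range. CTSH, the lysosomal protease cathepsin H, had 145, 36.2, 70.7 and 32.0 against 58.3, 409.8 and 678, a log2 difference of -2.42 (SE 0.52), and -2.13 without specimen 5549. In all, 2 of the 4 KO values lay below the lowest WT value.

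SLC15A1, an oligopeptide transporter of epithelial membranes, had 324, 225, 375 and 59.3 in line 1G10 and 324, 715 and 1317 at the lowest, median and highest WT tumour. Its log2 difference was -1.86 (SE 0.39), and -1.28 without specimen 5549. ATP6V1C2, a subunit of the vacuolar proton pump, had 115, 92.7, 127 and 60.5 against 145, 254 and 582, with no overlap and a difference of -1.38 (SE 0.28). PDIA6, with a mean of 2519 over the 15 tumours, shares some of the span of ATP6V1C2 on the opposite strand. SP5, a transcription factor and common target of WNT signalling, had 1.78, 6.66, 8.45 and 5.46 against 12.1, 15.2 and 27.3, also with no overlap, and its difference was -1.53 (SE 0.30) with and -1.57 without specimen 5549. It is a low gene, so few reads lie behind each value. IRX3, a homeobox factor, had 233, 194, 208 and 138 against 245, 379 and 488, and GRIN1, a glutamate receptor subunit, had 27.6, 30.5, 30.6 and 20.3 against 32.9, 57.5 and 80.9. Neither overlapped the WT range. The serine protease gene PRSS22, the villin-like VILL and CD164L2 had log2 differences of -1.15, -1.68 and -1.06, and their groups overlapped.

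The 12 with the most positive statistics were FN1, MAN2A1, SSH2, BCORL1, PPP1R3C, WNT7B, LBH, FAT2, ROCK2, NAV1, HIPK2 and FLRT2, with adjusted p between 0.181 and 0.198 in limma. FN1 encodes fibronectin, a matrix glycoprotein (chromosome 2, 215360440 to 215436074, minus strand). Its 1G10 values were 4400.5, 6420.3, 3661 and 11194 against 636, 1616 and 3706 at the lowest, median and highest WT tumour. In all, 3 of the 4 KO tumours exceeded every WT tumour and the fourth lay just under the highest one. The log2 difference was 1.93 (SE 0.41), and 1.61 (SE 0.44) without specimen 5549. In the other KO lines FN1 ranged from 4304 to 6180 in 2B8 and from 889 to 2727 in 2F7. PPP1R3C, a subunit that directs protein phosphatase 1 to glycogen, had 358, 354, 272 and 304 against 51.9, 94.5 and 246. The groups did not overlap, and the difference was 1.43 (SE 0.34) with and 1.45 without specimen 5549.

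LBH, a transcriptional cofactor of epithelial progenitors, had 126, 129, 129 and 130.3 in line 1G10 and 37.1, 66.3 and 117 at the lowest, median and highest WT tumour. Its 4 KO values were nearly equal (SD 2.07) where the WT SD was 21.8, and its log2 difference was 0.89 (SE 0.22). MAN2A1, a Golgi mannosidase of N-glycan processing, had 1461, 1531, 1330.5 and 1766 against 839, 1037 and 1309, and BCORL1, a transcriptional corepressor, had 198, 226, 206 and 236 against 122, 161 and 188. These groups did not overlap either, with differences of 0.51 and 0.52. ROCK2 and SSH2, a kinase and a phosphatase that act on the actin cytoskeleton, had differences of 0.46 and 0.47. FAT2, a cadherin of squamous epithelia, had 0.51, the ligand WNT7B 0.54, the guidance-related NAV1 0.75 and FLRT2 0.64, and the kinase HIPK2 0.42.

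**Figure D2:**
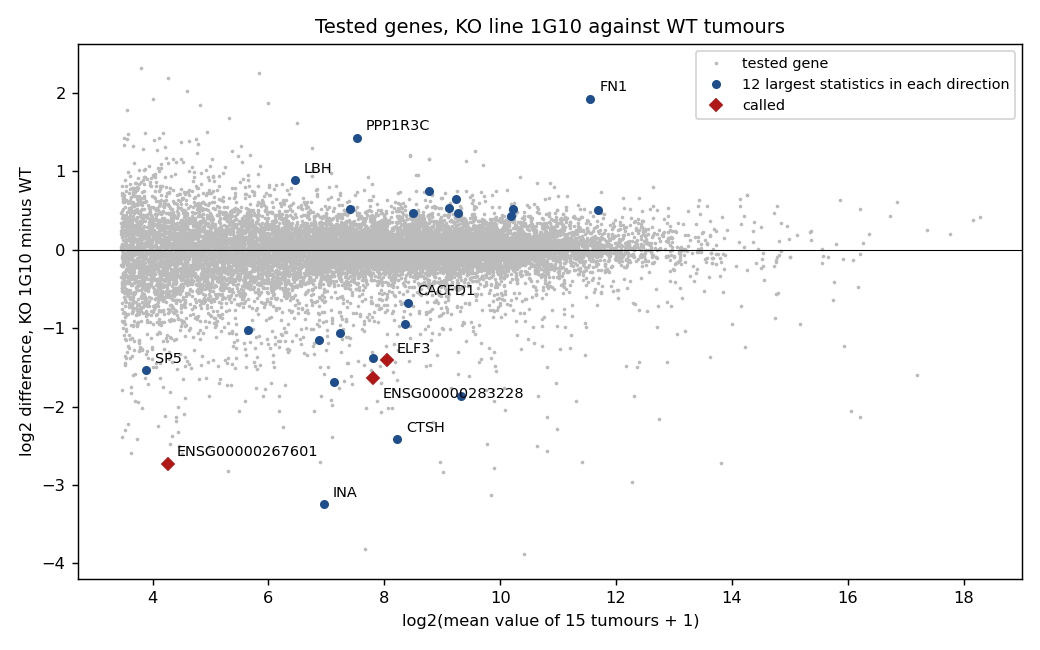
Log2 difference of the 15852 tested genes, KO line 1G10 minus WT, against log2 of the mean value of the 15 tumours plus 1. Red diamonds are the 3 called genes, all below 0, and blue points the other genes among the 12 largest statistics in each direction, with FN1 at 1.93 and INA at -3.25.

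Over all tested genes the median log2 difference was 0.00 and 49.6% of genes were negative. At an unadjusted p under 0.05 stood 913 genes (5.76%) higher and 1143 (7.21%) lower. Without specimen 5549 these were 449 (2.83%) and 599 (3.78%). With all 15 tumours, 21 genes (0.132%) had every 1G10 tumour above every WT tumour and 32 (0.202%) had every one below. Without specimen 5549 these were 35 (0.221%) and 53 (0.334%), with fewer KO tumours to satisfy. The gene lists that follow are read against these shares, and the members of a list are counted at the unadjusted p because the adjusted threshold was passed by ELF3 alone among the listed genes.

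The 4 lists of terminal differentiation lay lowest among the lists of keratinocyte genes. In the cornified envelope list 45 of 48 genes in the table were tested, 37 were negative, and the median difference was -0.72, or -0.21 without specimen 5549. None passed the threshold, and 20 were lower and 0 higher at the unadjusted p. Without specimen 5549 the same counts were 8 and 2. FLG, the filaggrin precursor that bundles keratin, had 42727, 24147, 36093 and 2719 in line 1G10 and 19749.8, 110221 and 139602 at the lowest, median and highest WT tumour, a difference of -2.13 (SE 0.65, limma adjusted p = 0.224). LORICRIN, the main envelope protein, had 4458, 3392, 7398 and 163 against 2982, 17203 and 35155, a difference of -2.72 (SE 0.83, adjusted p = 0.225). In both genes 3 of the 4 KO tumours lay within the WT range and specimen 5549 lay below it. Without that tumour the differences were -1.23 (SE 0.54) and -1.50 (SE 0.66).

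The envelope genes did not all lie on one side. The early precursor IVL, involucrin, had 9812, 18697, 19557 and 8315 against 8058, 10659.5 and 21488, inside the WT range in all 4 tumours, with a difference of 0.18 (SE 0.25). CDSN, corneodesmosin of the corneocyte junctions, had 36924, 50159.5, 67309.5 and 14766 against 39629, 62595 and 85716, a difference of -0.64 (SE 0.29) that was -0.21 without specimen 5549. SCEL, sciellin, had 329.5, 306, 691 and 158 against 378, 1018 and 1326, with 3 of 4 KO values below every WT value and differences of -1.43 with and -1.09 without that tumour. LCE1C, a late cornified envelope protein, had 150.2, 137, 191 and 16.5 against 57.0, 1405 and 1898.

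In the list of suprabasal keratins and spinous markers all 27 genes were tested, 25 were negative, and the median was -1.07, or -0.60 without specimen 5549. At the unadjusted p 18 were lower and 0 higher, against 8 and 0 without that tumour. KRT10, the spinous type I keratin, had 147355, 65249.7, 132008 and 6798 in line 1G10 and 75726, 185954 and 267276 at the lowest, median and highest WT tumour. Its difference was -1.60 (SE 0.57, limma adjusted p = 0.264), and -0.60 (SE 0.34) without specimen 5549. KRT1, its partner, had 78902, 20522, 32328 and 2063 against 31439, 80792 and 119700.0, with differences of -2.05 (SE 0.62) and -1.01 (SE 0.40). For each keratin 2 of the 4 KO values, those of specimens 5547 and 5549, lay below the WT range. CALML5, a calcium-binding protein of the granular layer, had -1.23 with and -0.66 without specimen 5549. The desmosomal cadherin DSC1 had -0.69 with and 0.12 without it, so its sign turned on that tumour.

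Of 23 tested kallikreins and epidermal protease inhibitors 21 were negative, with a median of -1.11, or -0.62 without specimen 5549. At the unadjusted p 13 were lower and 0 higher, against 8 and 0 without that tumour. KLK5, which starts the protease cascade that sheds corneocytes, had 2084, 1366, 3978 and 385 against 1315, 6922 and 9620.0 at the lowest, median and highest WT tumour, a difference of -1.87 (SE 0.56, limma adjusted p = 0.224), and -1.23 without specimen 5549. KLK7 had 2704, 2109, 4573 and 315 against 1164, 6065 and 8246, and KLK10 had 826, 749, 1497 and 197 against 746, 2759 and 3623. In all, 3 of the 4 KO tumours lay within the WT range in each of these 3 genes. The inhibitors lay on the same side, since SPINK5, which restrains KLK5 and KLK7, had 5059.9, 5701, 8130.4 and 1678 against 5508, 10326 and 13289 and a difference of -1.07 (SE 0.32), and PI3, elafin, had one of -0.95.

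Of 35 tested barrier lipid genes 32 were negative, with a median of -0.61, or -0.30 without specimen 5549. At the unadjusted p 22 were lower and 0 higher, but without that tumour 5 were lower and 0 higher. SMPD3, a sphingomyelinase, had 428, 530.4, 458 and 37.1 in line 1G10 against 373, 851 and 1311, a difference of -1.62 (SE 0.52) with and -0.71 (SE 0.31) without specimen 5549. LIPN, an epidermal lipase, had -1.22 and -0.66, SULT2B1, the cholesterol sulfotransferase, -0.82 and -0.30, and ABCA12, the lipid transporter of lamellar granules, -0.61 and -0.18.

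A score for each tumour was taken as the mean log2 value of a list's tested members. The cornified envelope score was 9.23, 9.74, 10.06 and 7.72 in specimens 5546, 5547, 5548 and 5549, and 9.27, 10.31 and 10.54 at the lowest, median and highest WT tumour. The suprabasal score was 11.61, 11.23, 11.96 and 9.40 against 11.31, 12.32 and 12.59, the kallikrein score 8.76, 8.86, 9.57 and 7.28 against 8.69, 10.03 and 10.22, and the barrier lipid score 8.74, 8.71, 9.15 and 7.17 against 8.61, 9.33 and 9.55. For these 4 lists no KO tumour reached the median WT score, and specimen 5549 was under the lowest WT tumour. The groups overlapped in every list, because WT specimens 5529, 5530 and 5531 scored 9.43, 9.53 and 9.27 for the cornified envelope and 11.56, 11.81 and 11.31 for the suprabasal list, within the range of the other 3 KO tumours. The other 8 WT tumours scored at least 10.25 for the cornified envelope. What sets these 3 WT tumours apart was not tested.

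**Figure D3:**
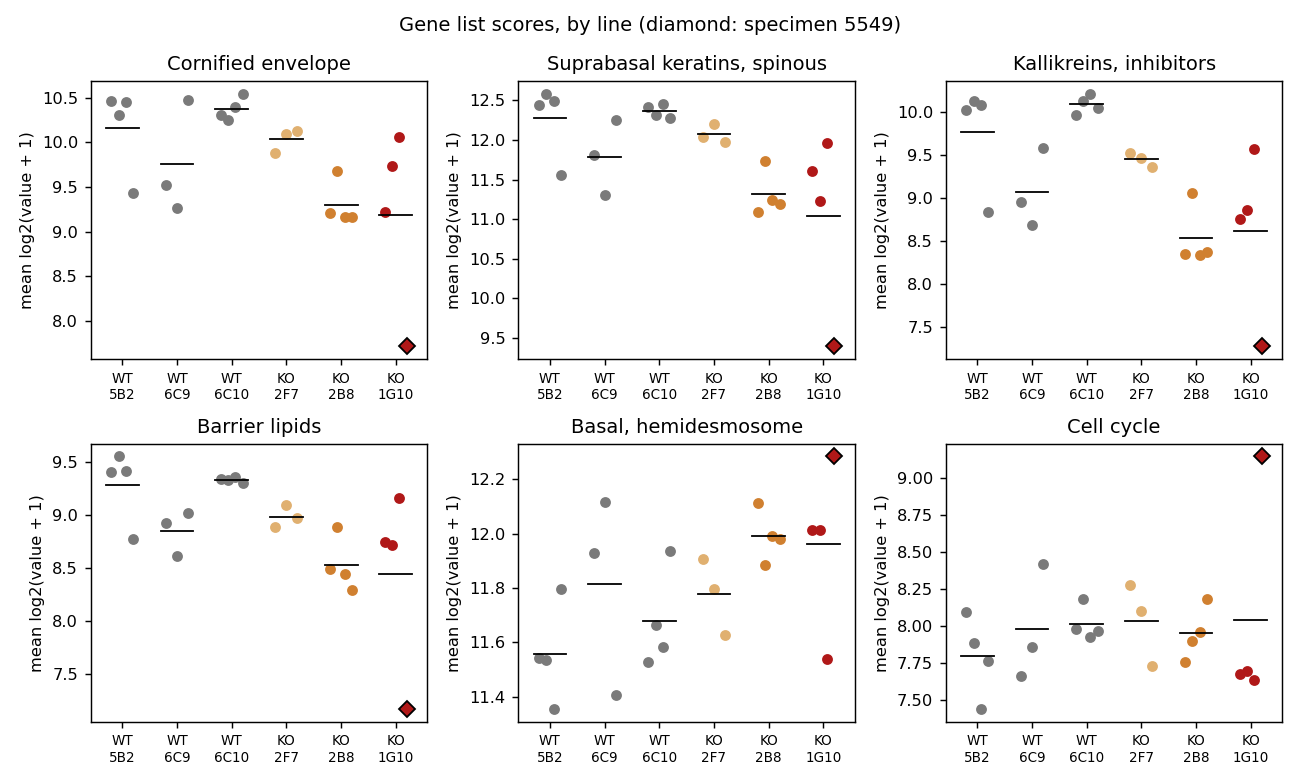
List scores, the mean log2(value + 1) of a list's tested members, in 22 tumours by line, with a bar at each line's mean. Grey points are WT tumours, orange and red points KO tumours, and the diamond is KO specimen 5549, which is the lowest point in the 4 differentiation panels and the highest in the basal and cell cycle panels.

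Transcription factors of terminal differentiation had 25 of 40 tested members negative and a median of -0.11, or 0.00 without specimen 5549. ELF3 was the member that passed the threshold, and at the unadjusted p 11 members including it were lower and 3 higher. Without specimen 5549 these were 5 and 2. The wound keratins and alarmins had 15 of 30 negative and a median of -0.11, or -0.01 without specimen 5549. At the unadjusted p 12 were lower and 1 higher, against 6 and 1 without that tumour. KRT6A and KRT16, keratins of activated epidermis, had differences of 0.19 and 0.25, and their KO values of 190074 to 315545 and 137495 to 262732 largely overlapped the WT ranges. The serpins SERPINB3 and SERPINB4, near-identical copies whose reads may be split, had differences of -2.15 and -2.13 (limma adjusted p = 0.206 and 0.198). Both were named after their values were seen.

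Genes of the basal layer lay on the other side. In the basal keratinocyte and hemidesmosome list 24 of 27 tested genes were positive, with a median of 0.39, or 0.28 without specimen 5549. None passed the threshold, and 12 were higher and 1 lower at the unadjusted p, against 4 and 1 without that tumour. DST, the hemidesmosomal linker dystonin, had 17058, 14681, 12033 and 19575 in line 1G10 and 7993, 10213 and 13734 at the lowest, median and highest WT tumour, a difference of 0.55 (SE 0.14, limma adjusted p = 0.198), and 0.44 (SE 0.14) without specimen 5549. In all, 3 of 4 KO tumours exceeded every WT tumour. LAMA3, a laminin chain of the basement membrane, had 2102, 2458, 1549 and 4082 against 1021, 1429 and 2473, and KRT14 had 360792, 372763, 367257 and 429157 against 202703, 268694 and 412428. The differences were 0.65 (SE 0.23) and 0.41 (SE 0.24). The basal score was 12.01, 12.01, 11.54 and 12.28 in the 4 tumours and 11.35, 11.58 and 12.12 in WT, so specimen 5548 lay below the WT median and specimen 5549 above the highest.

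In the list of epithelial-mesenchymal transition and matrix genes 28 of 33 were positive, with a median of 0.35, or 0.26 without specimen 5549, and 15 were higher and 0 lower at the unadjusted p, against 7 and 2. FN1 led it. TGFBI, a matrix protein induced by TGF-beta, had 6908, 7653, 7934 and 14458 against 3827, 4381 and 8919, a difference of 0.80 (SE 0.23, limma adjusted p = 0.224). CALD1, caldesmon, was the only member with no overlap, with 1828, 1578, 1571 and 2049 against 1187, 1438 and 1555 and a difference of 0.30 (SE 0.09). TNC, tenascin C, had 1222, 1504, 913 and 5218, with specimen 5549 far above the other 3 and differences of 0.93 with and 0.40 without it. Invasion proteases had 19 of 24 positive and a median of 0.23, or 0.17 without specimen 5549, with 6 higher and 2 lower at the unadjusted p, against 2 and 1. The collagenase MMP1 and the membrane protease MMP14 had differences of 0.63 (SE 0.29) and 0.34 (SE 0.15), with all 4 KO values inside the WT range for both.

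Squamous identity genes had 11 of 14 positive and a median of 0.24, or 0.22 without specimen 5549, and desmosome genes 10 of 14 and a median of 0.17, or 0.23. DSP, desmoplakin, had 127340.0, 144473, 137833 and 113857 in line 1G10 and 69312, 92520.3 and 167377 at the lowest, median and highest WT tumour, a difference of 0.42 (SE 0.20). Hypoxia and glycolysis genes had 33 of 38 positive and a median of 0.21, or 0.22 without specimen 5549. At the unadjusted p 6 were higher and 0 lower, against 7 and 0 without that tumour. SLC2A1, the glucose transporter GLUT1, had 42542, 40945, 34213 and 29437 against 22837, 27861 and 39781, a difference of 0.30 (SE 0.15).

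Interferon response genes had 39 of 50 positive and a median of 0.28, or 0.26 without specimen 5549, with 15 higher and 2 lower at the unadjusted p, against 11 and 1. DDX60L, an interferon-induced helicase, had 163, 141, 136 and 159 in line 1G10 and 82.1, 114 and 136 at the lowest, median and highest WT tumour. The groups touched without overlapping, and the difference was 0.43 (SE 0.14, limma adjusted p = 0.237). PALLD, with a mean of 2936, overlaps part of DDX60L on the other strand. RSAD2, the antiviral enzyme viperin, had 136, 133, 83.4 and 101 against 23.6, 70.2 and 142, a difference of 0.79 (SE 0.34) with the ranges overlapping. IFITM3, which blocks viral entry, had 0.43 (SE 0.16) and PARP9 0.40 (SE 0.13). This list hardly moved when specimen 5549 was left out.

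Cholesterol synthesis genes had 22 of 27 negative and a median of -0.12, or -0.09 without specimen 5549, with 7 lower and 0 higher at the unadjusted p, against 2 and 0. The epoxidase SQLE had -0.23 (SE 0.10). Cytosolic ribosomal protein genes had 51 of 59 negative at a median of -0.06, and mitochondrially encoded transcripts 13 of 13 at -0.13. Not every list leaned this way, as targets of the oxidative stress factor NRF2 had 13 of 27 negative. The counts of signs were not tested. Genes of Flower biology, cell competition and calcium entry had 22 of 37 positive and a median of 0.07, or 0.07 without specimen 5549. At the unadjusted p 4 were higher and 6 lower, against 1 and 5 without that tumour. Beyond CACFD1 no member had groups that did not overlap, and SPARC, a calcium-binding matrix protein, had a difference of 0.35.

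**Figure D4:**
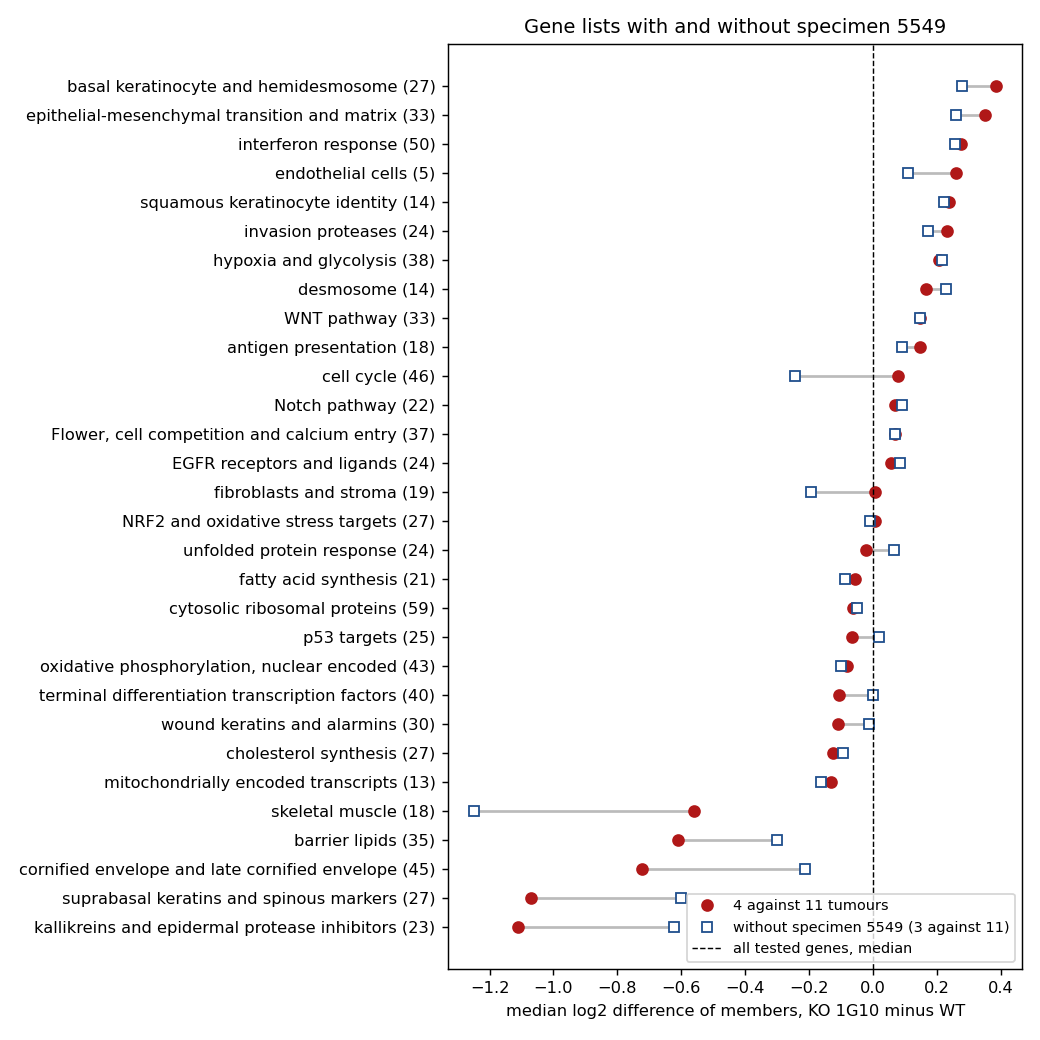
Median log2 difference of the tested members of each list with at least 5 of them, KO line 1G10 minus WT, with the number of members in brackets. Filled circles use all 15 tumours and open squares leave out specimen 5549, which brings the cornified envelope list from -0.72 to -0.21 and the cell cycle list from 0.08 to -0.24.

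Specimen 5549 differed from the other 3 tumours of its own line more than any of them did from the rest. Of 15852 genes, 95 (0.599%) were more than 4-fold above the mean of the other 3 and above each of them, and 253 (1.60%) were more than 4-fold below. The same count in either direction was 348 for specimen 5549 and 87, 60 and 141 for specimens 5546, 5547 and 5548. Among the lower genes were 21 of 45 in the cornified envelope list, 14 of 27 in the suprabasal list, 8 of 23 in the kallikrein list and 13 of 35 in the barrier lipid list. Among the higher were 6 of 46 cell cycle genes. MKI67, the proliferation marker Ki-67, had 515, 536, 396 and 2071 in line 1G10 and 309.8, 519 and 931 at the lowest, median and highest WT tumour, and TOP2A, the mitotic topoisomerase, had 449, 439, 407 and 1745 against 254, 562 and 825. The cell cycle score was 7.68, 7.70, 7.64 and 9.15 against 7.44, 7.93 and 8.42, so 3 KO tumours lay below the WT median and the fourth above the highest WT tumour. The list median was 0.08 with specimen 5549 and -0.24 without it, and at the unadjusted p the counts of higher and lower genes went from 0 and 1 to 0 and 8.

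Among markers of other cells, those of skeletal muscle moved with specimen 5549. In bulk tumours fewer cells of a type and less RNA per cell cannot be told apart, and reads of mouse host cells can be assigned to human genes. All 18 skeletal muscle markers were in the table and none was at 0 in all 15 tumours. Their summed values were 1356, 815, 964 and 4350.5 in specimens 5546 to 5549, and 554, 1151 and 20884 at the lowest, median and highest WT tumour. In 14 of the 18, specimen 5549 was more than 4-fold above the other 3, and the WT tumours spanned more than that. The muscle list median was -0.56, or -1.25 without specimen 5549. By the same 4-fold measure specimen 5549 was above in 0 tested fibroblast, endothelial or leukocyte markers and in 1 adipocyte marker. All 22 fibroblast and stroma markers were in the table, none at 0, with summed values of 13710, 21485, 8995 and 24027 against 10283, 12451 and 25776. The 15 endothelial markers summed to 460.4 to 589 in line 1G10 and 447 to 592 in WT, the 13 leukocyte markers in the table to 439 to 639 and 497 to 673, and the 8 adipocyte markers to 103 to 164 and 98.7 to 202. Of 8 erythroid markers 5 were in the table, with sums of 3.17 to 23.8 and 4.46 to 42.9. The part of these cells in the differences above was not tested.

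Line 1G10 was also compared directly with the other KO lines, with no WT tumour in the fit. Against the 4 tumours of line 2B8 limma called 0 of 15903 genes, with 133 (0.836%) higher and 446 (2.8%) lower at an unadjusted p under 0.05, together 3.64%. Without specimen 5549 it called 0 of 15946, with 294 (1.84%) higher and 580 (3.64%) lower, together 5.48%. The differentiation lists had median differences near 0, at -0.07 for the cornified envelope, -0.15 for the suprabasal list, 0.02 for the kallikreins and -0.02 for barrier lipids. Without specimen 5549 these 4 medians were 0.35, 0.31, 0.55 and 0.30, so their sign depended on that tumour in 3 lists and their size in all 4. Other lists differed from 2B8 in either direction. Interferon response had -0.37 with and without specimen 5549, and cholesterol synthesis 0.20 with and 0.22 without it. Against the 3 tumours of line 2F7 limma called 0 of 15862 genes, with 415 (2.62%) higher and 568 (3.58%) lower at the unadjusted p, together 6.2%. The medians of the 4 differentiation lists there were -0.62, -0.92, -0.97 and -0.47, or -0.24, -0.34, -0.46 and -0.10 without specimen 5549.

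Without specimen 5549, 1 of 15882 genes (0.0063%) passed the threshold against line 2F7, and 404 (2.54%) were higher and 552 (3.48%) lower at the unadjusted p, together 6.02%. LCE1C (chromosome 1, 152804832 to 152806652, minus strand) had 150.2, 137 and 191 in the other 3 tumours of 1G10 and ranged from 781 to 1147 in line 2F7. It fell by 2.51 on the log2 scale in that fit (limma adjusted p = 0.0108), and with specimen 5549, at 16.5, its spread was larger and its adjusted p was 0.784. In line 2B8 it ranged from 72.4 to 333. With all 4 tumours and a pseudocount of 10, INA was the 1 gene called against line 2F7, at -3.90 (limma adjusted p = 0.0176), and its adjusted p was 0.127 at a pseudocount of 1. Its values in line 2F7 were between 311 and 375.

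Across the genome, chromosome 20 stood apart. The median log2 difference of its 410 tested genes was 0.27, or 0.24 without specimen 5549, while the medians of the other 22 chromosomes lay between -0.05 and 0.07. At the unadjusted p 124 of the 410 were higher and 8 lower, together 32.2%, against 13% of all genes. None was called. In windows of 10 Mb along the chromosome the median was between 0.19 and 0.32 in all 7, so it was not limited to one end.

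The tumours fell into separate levels on this chromosome. Each tumour's median deviation from the WT mean was 0.40, 0.41 and 0.34 in KO specimens 5547, 5548 and 5549 and -0.10 in specimen 5546. In WT specimens 5529 and 5531 it was 0.43 and 0.44, and in the other 9 it was between -0.11 and -0.06. The 2 KO lines not compared here split as well, with 2 of 4 tumours of 2B8 and 1 of 3 of 2F7 above 0.20. In all, 8 of 22 tumours lay between 0.27 and 0.44 and 14 between -0.11 and -0.06, with none in between, while the other chromosomes stayed within -0.11 and 0.11 in every tumour. The groups held 3 of 4 high tumours in line 1G10 against 2 of 11 in WT, and high and low tumours occurred within 1G10, 5B2 and 6C9. Copy number was not measured here. None of the 24 genes with the largest statistics is on chromosome 20. In the alternative fit with array quality weights 2 of the 41 called genes, ZNFX1 and PHF20, were on chromosome 20, both higher. Of the 3 WT tumours with low differentiation scores, 5529 and 5531 were high on chromosome 20 and 5530 was not, and whether the levels are related was not tested.

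**Figure D5:**
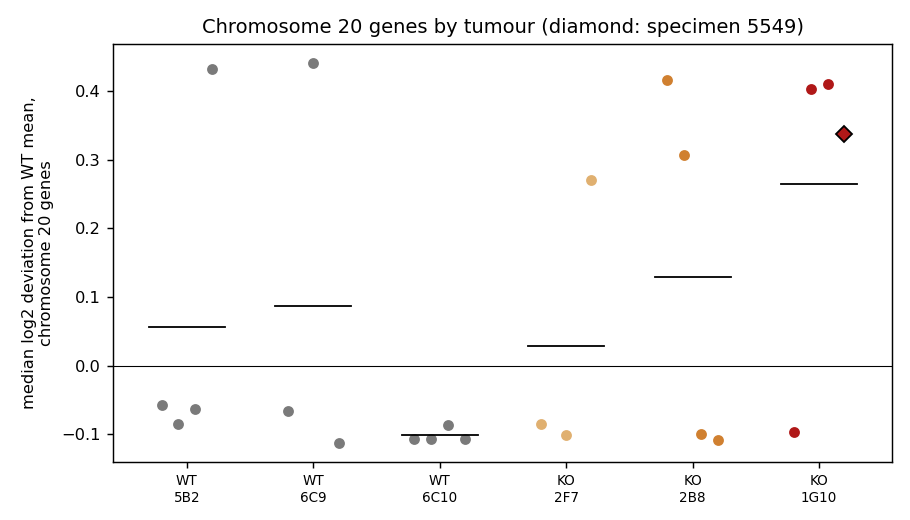
Median log2 deviation from the WT mean over the 410 tested genes of chromosome 20, for 22 tumours by line, with a bar at each line's mean. Grey points are WT tumours, orange and red points KO tumours, and the diamond is KO specimen 5549. The points sit at 0.27 to 0.44 or at -0.11 to -0.06, with both levels in 5 of the 6 lines.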

How the data were processed

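Poly(A) RNA-seq of 500 ng RNA from each tumour was analysed from 1 table of 27589 genes. The authors deposited a normalized signal per gene and tumour, made with STAR, DESeq2 and hg38 per the submitters' processing notes, which name no versions. The sources used here do not say whether counting used strand or what became of mouse reads. Whole reads could not be recovered, since 70.6% to 83.8% of low values (at most 20 reads) fell within 0.02 of a whole number of reads, given the value of 1 read. That value, inferred from the most frequent low values, gave the estimated reads, which are approximate. Genes averaging at least 10 across the 15 tumours entered limma 3.58.1 (R 4.3.3) as log2(value + 1), with a trended variance prior and Benjamini-Hochberg adjustment at 0.05. Fold changes on that scale understate those of low genes. The fit was tested on simulated data. Alternatives changed the pseudocount, filter, scaling, weights and tumours. The members and lists were chosen with earlier results of these data known. The naming rule took CACFD1, the called genes, the 12 largest statistics in each direction and, per list, called members or else the 2 with the highest mean. The text gives part of these, and some are not reported here. CALD1, DDX60L, FLG, LORICRIN, KRT1, KRT10, IVL, SCEL, LCE1C, KLK5, KLK7, KLK10, CALML5, DSC1, SMPD3, LIPN, SULT2B1, ABCA12, DST, LAMA3, TNC, PARP9, RSAD2, MKI67 and TOP2A were also picked out with their values known.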

Additional observations from a re-analysis of the deposited data

Results flagged for a closer look

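In line 1G10 and WT lines 5B2 and 6C10, of 4 tumours each, the highest or lowest tumour was compared with the other 3 by Dixon's ratio at its 95% critical value. Of 315 such groups 25 exceeded it, 8 in line 1G10 and 17 in WT lines, where chance gives about 1 in 20. Some of the genes were picked with their values known, and some are members of the scored lists. That rate is therefore no benchmark for the count. All values are on the log2 scale.

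In line 1G10 specimen 5549 stood apart 5 times. It had 5.25 for SMPD3 (others 8.74 to 9.05), 4.13 for LCE1C (7.11 to 7.59), 10.77 for TOP2A (8.67 to 8.81), 9.15 for the cell cycle score (7.64 to 7.7) and 8.5 for the p53 target score (8.73 to 8.75). Specimen 5548 had 12.34 for SQLE (11.86 to 11.93) and 10.34 for the cholesterol synthesis score (9.89 to 9.93), and specimen 5546 had -0.1 for the chromosome 20 median (0.34 to 0.41).

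In WT line 5B2 specimen 5529 had 14.58 for FLG (others 16.75 to 17.09), 10.19 for KLK7 (12.76 to 13.01) and 9.55 for KLK10 (11.43 to 11.77). Its scores were 9.43 for the cornified envelope (10.31 to 10.47), 11.56 for suprabasal genes (12.45 to 12.59), 8.84 for kallikreins (10.03 to 10.14), 9.92 for cholesterol synthesis (10.3 to 10.37) and 7.96 for fibroblasts and stroma (6.95 to 7.03). Its chromosome 20 median was 0.43 (-0.08 to -0.06). Specimen 5526 had 8.54 for SSH2 (8.18 to 8.24), 17.35 for DSP (16.4 to 16.5) and 13.09 for the desmosome score (12.57 to 12.63), and specimen 5528 had 7.0 for simple epithelial keratins (6.53 to 6.6).

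In WT line 6C10 specimen 5534 had 7.67 for INA (others 6.92 to 7.05) and 5.45 for the leukocyte score (5.95 to 6.0), specimen 5535 had 9.55 for TOP2A (9.14 to 9.21), and specimen 5536 had -0.09 for the chromosome 20 median (-0.11 in the other 3).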

How the results depend on the processing

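No paired analysis was possible because specimen labels are unique and the groups share no replicate number in the labels. The count of 3 called genes, all lower, became 0 in 6 of 17 alternatives listed apart from the fits that each left out 1 tumour. These 6 were a mean of at least 50, WT specimen 5533 included, both shallow libraries out, WT lines weighted equally, line 5B2 out and line 6C10 out. With both shallow libraries out the fit equals that without WT specimen 5532, since the main fit already leaves out specimen 5533. The count was 2 or 3 in 9 of the 17, 41 (35 lower, 6 higher) with array quality weights and 19 (17 lower, 2 higher) without line 6C9. In the last 2 CACFD1 passed the threshold, at -0.61 and -0.75. Leaving out 1 tumour gave 0 to 25 called, 0 to 24 lower, 0 to 1 higher, 1048 to 2541 genes at the unadjusted p, 22 to 120 with every KO tumour above and 33 to 139 below, and -0.76 to -0.51 for CACFD1, which was called without WT specimen 5531 at -0.71. The unadjusted count was 1072 with specimen 5533, where 19 genes lay below, and 1350 without line 5B2. Genes above and below were 52 and 70 without line 5B2, 99 and 142 without 6C9, and 89 and 101 without 6C10. Fewer tumours make separation easier by construction. For the other changes the cause was not tested.

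Against line 2F7 the count was 1 with a pseudocount of 10 and 0 to 1 with 1 tumour left out. Specimen 5549 had 155 genes past 4-fold with a pseudocount of 10, an alternative chosen after seeing the data. Signs turned for genes that were not called. With array weights MCM4 was -0.12 and TOP2A -0.11. Leaving out 1 tumour gave -0.17 to 0.18 for MCM4, -0.24 to 0.46 for TOP2A, -0.0085 to 0.40 for IVL, -0.15 to 0.090 for PERP, -1.17 to 0.12 for DSC1 and -0.13 to 0.67 for MKI67. WT specimen 5532 had the fewest estimated reads of the 15 tumours, 7011069, which limits the precision of its low values.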
